A study of Homo sapiens with 3 samples.

Results

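The nuclear-encoded genes of oxidative phosphorylation were followed in the AGS line, which comes from a human gastric adenocarcinoma, under 2 compounds known here only by the code names SFA and SFE. The first group was treated with 12 µM SFA, the second with 18 µM SFE, and the control group received DMSO, the vehicle. All cells were grown for 48 h after the compounds were added, and each group is 1 library of RNA depleted of ribosomal RNA, so no difference below has a replicate check or a p-value. Members were taken by gene name: the NDUFA, NDUFB, NDUFC, NDUFS and NDUFV genes, SDHA to SDHD, the UQCR genes, CYC1, CYCS, the COX4 to COX8 genes and the ATP5 genes, with numbered pseudogenes left out. Of the 50868 genes in the table, 94 were members, 40 of them in complex I, 4 in complex II, 11 in complex III with cytochrome c, 19 in complex IV and 20 in complex V.

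Oxidative phosphorylation is carried out by protein complexes in the inner mitochondrial membrane. Complexes I and II pass electrons from NADH and succinate to ubiquinone, complex III passes them to the small carrier cytochrome c, and complex IV reduces oxygen. Complexes I, III and IV pump protons, and complex V, the ATP synthase, uses the resulting gradient to make ATP. Most subunits are encoded in the nucleus, and the others by the mitochondrial genome, so the complexes draw on both gene sets. Many nuclear subunit genes are known targets of the transcription factors NRF1 and GABP, the second of which belongs to the ETS family.

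Not all 94 rows encode a subunit. A total of 83 are known subunits or their tissue isoforms. The other 11 are 3 antisense RNAs, the read-through genes NDUFC2-KCTD14 and ATP5J2-PTCD1, the retrocopies UQCRHL and ATP5L2, the pseudogene ATP5J2LP, the related proteins ATP5S and ATP5SL, and COX7A2L, a factor that joins complexes III and IV into supercomplexes. At least 1 FPKM (fragments per kilobase, scaled to the library total, as deposited) in any library was reached by 79 of the 94 rows, and 78 of these reached it in every library. The exception was the antisense RNA NDUFB2-AS1, which reached it with DMSO alone. The 15 rows below it comprised 8 known subunits or isoforms and 7 rows that encode no subunit.

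The libraries held 13639844 counts with SFA, 13644676 with SFE and 18767232 with DMSO. Intervals in the text are 95% intervals that cover counting error only. KRT8 and KRT18, keratins of simple epithelia, stood at 223 and 292 FPKM with SFA, 232 and 294 FPKM with SFE, and 416 and 534 FPKM with DMSO. CLDN4, a tight junction claudin, stood at 1.97 FPKM with SFA, 1.72 with SFE and 1.48 with DMSO, and ELF3, an epithelial ETS factor, at 3.56 FPKM with SFA, 3.37 with SFE and 4.38 with DMSO. The other 3 of the 7 epithelial markers, EPCAM, CDH1 and KRT19, stayed below 1 FPKM in every library. None of 6 leukocyte, 4 endothelial, 5 erythroid and 4 hepatocyte markers reached 1 FPKM. Of 6 fibroblast markers, 3 did, and all 3 were lower in the treated libraries: COL1A1 at 5.96 FPKM with SFA, 7.16 with SFE and 11.3 with DMSO, and COL3A1 at 1.49 FPKM with SFA, 2.40 with SFE and 8.47 with DMSO. PDGFRB stood at 2.63 FPKM with SFA, 2.99 with SFE and 6.39 with DMSO, while COL1A2 was at or near 0 and DCN and LUM stayed below 1 FPKM. The part of these marker shifts in the results below was not tested. In bulk RNA, fewer cells of a type and less RNA per cell cannot be told apart.

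To set the members beside their known regulators, the promoter windows given for them by RefSeq (GRCh38.p14; 250 bases before and 50 after each annotated start) were searched on both strands for CGCATGCG, the core of the NRF1 palindrome, CCGGAAG, an ETS motif, CCAAT and TATAAA. None of these 4 words contains another. A window was found for 72 of the 94 members and 66 of the 83 known subunits. The windows of ATP5J, COX6A1 and SDHD are shown because they held both the NRF1 core and the ETS letters before the start, and the windows of COX4I1 and COX7A2L are shown because these genes stood far from DMSO. ATP5D, which also stood far from DMSO, is named only. Each line gives the 250 bases before the start, 5′ to 3′ on the gene's own strand, with matches to the 4 words in capitals. The ATP5J window lies at chr21:25735055-25735304 on the minus strand, that of COX6A1 at chr12:120437863-120438112 on the plus strand, that of SDHD at chr11:112086623-112086872 on the plus strand, that of COX4I1 at chr16:85799445-85799694 on the plus strand and that of COX7A2L at chr2:42361218-42361467 on the minus strand.
ATP5J: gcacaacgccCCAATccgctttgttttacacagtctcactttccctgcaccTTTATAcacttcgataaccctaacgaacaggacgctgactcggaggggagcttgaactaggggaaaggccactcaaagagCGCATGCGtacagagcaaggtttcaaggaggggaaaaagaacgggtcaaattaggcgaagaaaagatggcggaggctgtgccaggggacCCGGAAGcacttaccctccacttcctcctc
COX6A1: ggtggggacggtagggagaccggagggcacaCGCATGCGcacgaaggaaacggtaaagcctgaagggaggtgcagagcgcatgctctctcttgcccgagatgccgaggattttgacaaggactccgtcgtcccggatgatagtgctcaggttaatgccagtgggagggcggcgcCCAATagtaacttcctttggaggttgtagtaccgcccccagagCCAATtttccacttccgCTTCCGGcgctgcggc
SDHD: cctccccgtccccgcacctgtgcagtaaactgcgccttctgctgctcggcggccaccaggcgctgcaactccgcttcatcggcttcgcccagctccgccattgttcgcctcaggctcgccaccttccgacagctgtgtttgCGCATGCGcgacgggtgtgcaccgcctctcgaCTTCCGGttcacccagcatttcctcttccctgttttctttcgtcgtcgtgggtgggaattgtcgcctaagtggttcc
COX4I1: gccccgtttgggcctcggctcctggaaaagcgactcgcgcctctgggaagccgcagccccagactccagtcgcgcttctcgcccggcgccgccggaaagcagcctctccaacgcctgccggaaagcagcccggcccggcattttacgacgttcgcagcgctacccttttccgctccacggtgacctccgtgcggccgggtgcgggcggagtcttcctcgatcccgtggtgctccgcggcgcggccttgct
COX7A2L: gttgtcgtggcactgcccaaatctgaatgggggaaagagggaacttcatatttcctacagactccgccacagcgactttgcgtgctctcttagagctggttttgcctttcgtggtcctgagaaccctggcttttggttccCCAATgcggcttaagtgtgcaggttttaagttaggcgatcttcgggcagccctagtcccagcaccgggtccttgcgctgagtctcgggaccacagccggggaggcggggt
In ATP5J the NRF1 core begins 119 bases before the start and the ETS letters 30 bases before it. In COX6A1 they begin 219 and 16 bases before the start, and in SDHD 109 and 77 bases before it. The COX4I1 stretch shown holds none of the 4 words, but the ETS letters begin 2 bases after its start, so its window counts among those with them. The COX7A2L stretch holds CCAAT alone, 110 bases before the start, and the other window of this gene holds none of the 4 words.

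Over the 61 known subunits at 1 FPKM that had a window, 14.1% of 71 windows held the NRF1 core and 29.6% held the ETS letters. The same shares were 3.45% and 18.2% over the 11475 windows of genes at 1 FPKM, and 2.02% and 10.3% over all 35116 windows. CCAAT stood in 29.6% of the subunit windows, against 35.4% of those of genes at 1 FPKM and 34.6% of all windows. TATAAA stood in 8.45% of the subunit windows, above the 5.82% of genes at 1 FPKM and below the 11.5% of all windows. Complex V had the NRF1 core in 4 of its 15 windows and complex III in none of 8, while the ETS letters stood in 5 of 10 complex IV windows and 5 of 35 complex I windows. These are descriptions of letters in a window, with no test, and a gene with several annotated starts has several windows.

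The subunits spanned a wide range of levels within each complex. Levels of different genes can be compared only per length, and the length behind the deposited FPKM matters here. For 91.2% of the 91 members with counts, this length lay within 1% of the sum of all distinct annotated exons of the gene in GENCODE 29, in which overlapping exons count repeatedly, whereas it lay within 1% of the merged exon length for 8.79%. A gene with many annotated transcripts therefore has a low FPKM for its counts. Over the 75 known subunits at 1 FPKM, the length used was a median 3.6 times that of the principal transcript, and ran from 1.0 times for NDUFA1 to 21.0 times for COX4I1, which has 18 annotated transcripts. COX4I1 ranked 52 of 75 by FPKM with DMSO but 14 by counts scaled to the library total per kilobase of the principal transcript, and NDUFA8, with 1 transcript, ranked 6 by FPKM but 31 by that level. In the ratio of 1 gene between libraries the length cancels, but in a difference of log2(FPKM + 1), used below, it does not: a longer length brings a low gene closer to 0. Levels across genes are therefore given as CPM (counts scaled to the library total) per kilobase of the principal transcript, a scale chosen after seeing the data.

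**Figure D1:**
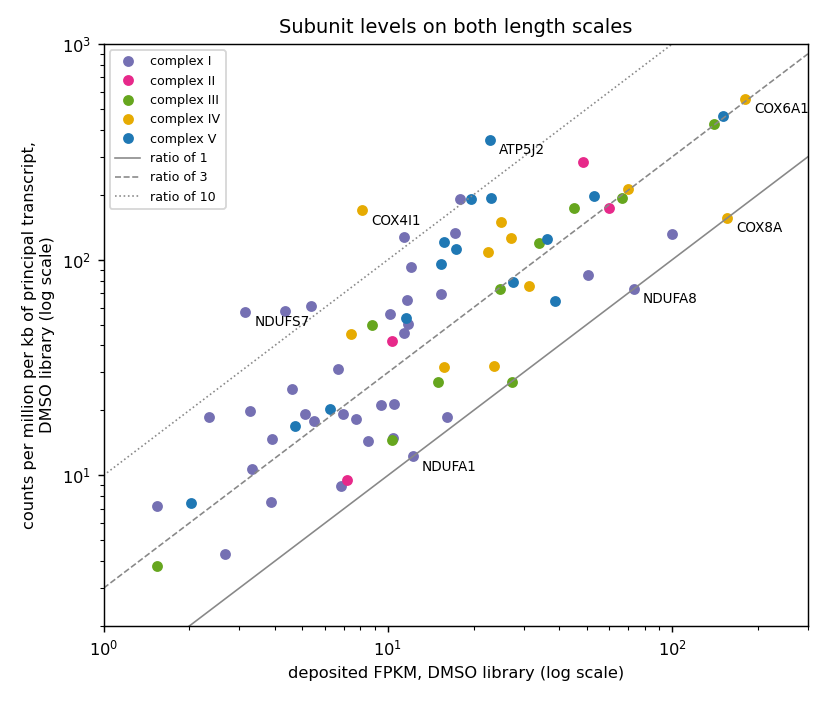
Deposited FPKM (x axis, log scale) and CPM per kilobase of the principal transcript (y axis, log scale) of 75 known subunits in the DMSO library, 1 point a gene, coloured by complex, with lines at fixed ratios of the y to the x value. COX4I1 lies highest above the solid line of equal values, at a ratio of 21.0, and NDUFA1, NDUFA8 and COX8A lie on that line.

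On that scale COX6A1, the common form of complex IV subunit 6A, had the highest level in every library, at 612 CPM per kilobase with SFA, 579 with SFE and 557 with DMSO. ATP5B, the catalytic beta subunit of the ATP synthase, followed at 521 CPM per kilobase with SFA, 499.8 with SFE and 465 with DMSO. UQCRC1, a core protein of complex III, stood at 452 CPM per kilobase with SFA, 433 with SFE and 425 with DMSO. At the other end UQCRB, a small complex III subunit, stood at 3.46 CPM per kilobase with SFA, 3.02 with SFE and 3.79 with DMSO. Levels within complex III thus spanned 131-fold with SFA, 143-fold with SFE and 112-fold with DMSO. Much of this depends on the transcript picked, which for UQCRB has 5575 bases and for UQCRQ, also of complex III, 586. Their counts with DMSO were closer, at 397 and 547. The same limit holds for other genes with a long principal transcript, such as SDHC (13566 bases) and NDUFS1 (11819 bases). Among subunits at 1 FPKM and on this scale, complex IV was the most even. Its highest over lowest level was 18.6-fold with SFA, 17.2-fold with SFE and 17.6-fold with DMSO, without its 7 tissue isoforms below 1 FPKM. By deposited FPKM complex II was the most even, at 7.11-fold with SFA, 6.79-fold with SFE and 8.35-fold with DMSO. Complex IV then spanned 54.9-fold with SFA, 24.5-fold with SFE and 24.2-fold with DMSO. Complex I had the lowest median level, 29.9 CPM per kilobase with SFA, 30.7 with SFE and 21.5 with DMSO, while those of complexes II, IV and V lay between 103 and 131 in every library. The complex I median fell on NDUFA7 with SFA and SFE but on NDUFB3 with DMSO, so it does not follow a single gene. Summed counts of complex I per library total were 1.07 times DMSO with SFA and 1.03 times with SFE.

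**Figure D2:**
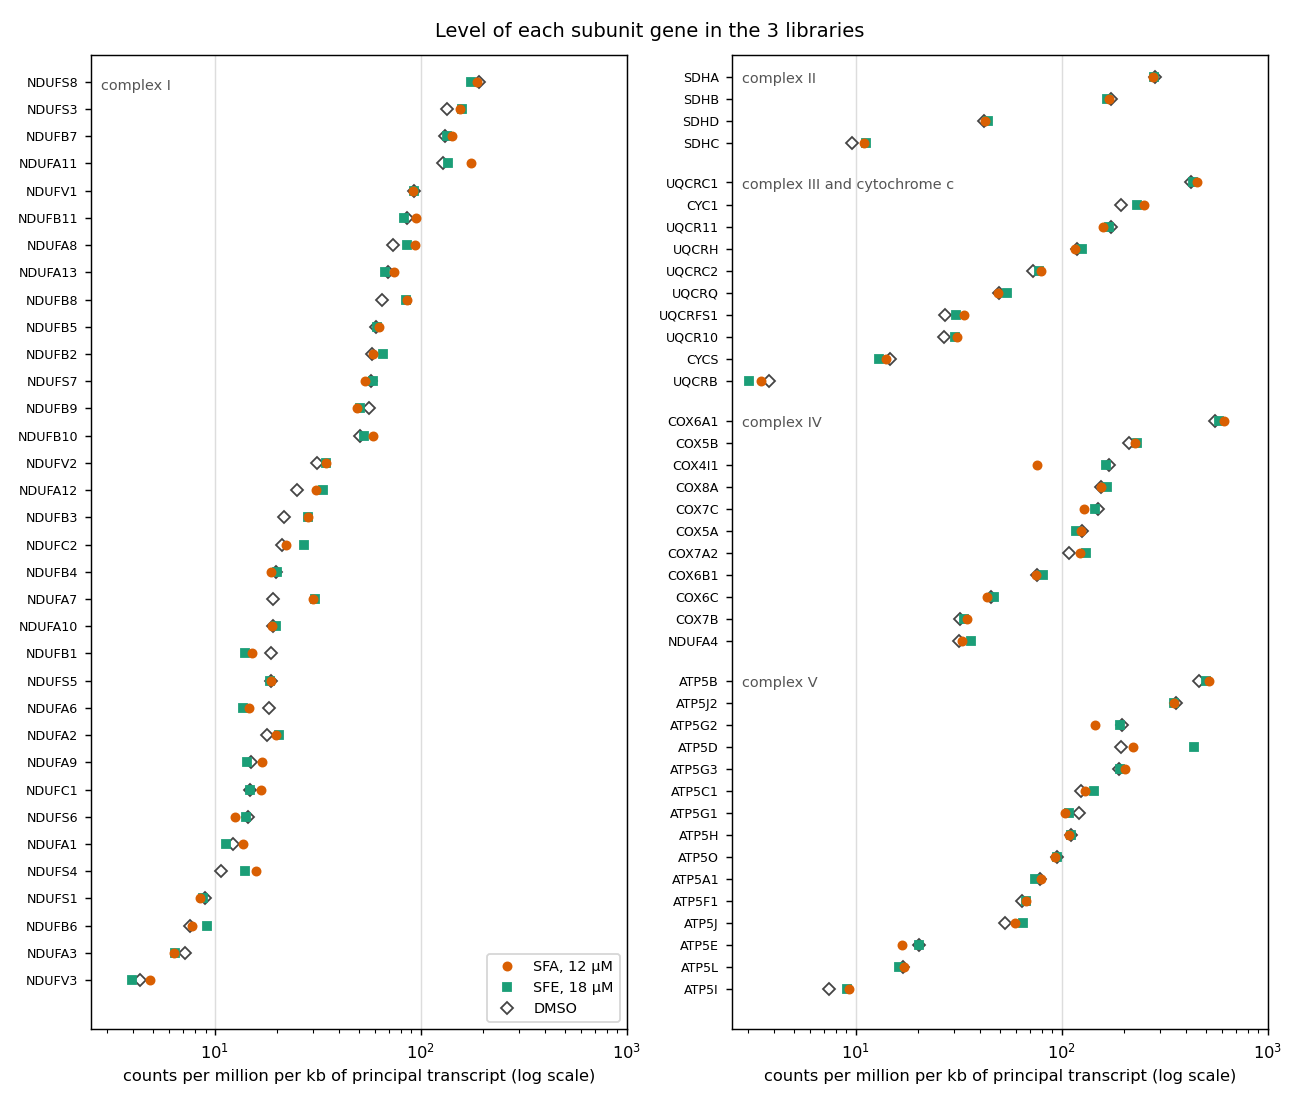
Level of 74 of the 75 known subunits at 1 FPKM (CPM per kilobase of the principal transcript, log scale) with SFA, SFE and DMSO, 1 row a gene, ordered within each complex by the DMSO level. The 3 libraries nearly coincide in most rows, and COX4I1 with SFA (75.6, against 164 with SFE and 170 with DMSO) and ATP5D with SFE (438, beside 221 with SFA and against 194 with DMSO) stand apart.

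The tissue isoforms of complex IV were at or near 0 in all 3 libraries. COX6A2 and COX7B2, known from muscle and testis, had 0 counts in every library, and COX4I2, COX7A1, COX6B2 and COX8C had at most 8 counts in any library. NDUFA4L2, a hypoxia-associated relative of the complex IV subunit NDUFA4, had the most reads of the isoforms, with 39 counts with SFA, 40 with SFE and 51 with DMSO. Per kilobase of the principal transcript it held 6.86% of the summed level of NDUFA4 and NDUFA4L2 with SFA, 6.43% with SFE and 6.79% with DMSO. Its share of their counts, not corrected for length, was 3.91% with SFA (interval 2.8 to 5.31%), 3.66% with SFE (2.63 to 4.95%) and 3.87% with DMSO (2.89 to 5.06%). These intervals overlap throughout.

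The deposited rows let the RNA for the c subunit of the ATP synthase be split by gene. ATP5G1, ATP5G2 and ATP5G3 encode the same mature c subunit with different import sequences. Per kilobase of the principal transcript, ATP5G2 held 32.2% of the summed level of the 3 genes with SFA, 38.9% with SFE and 38.7% with DMSO. ATP5G3 held 44.9% of that level with SFA, 39.0% with SFE and 37.5% with DMSO, and ATP5G1 held 22.8% with SFA, 22.1% with SFE and 23.8% with DMSO. On this scale ATP5G3 thus led with SFA, while ATP5G2 and ATP5G3 lay close together with SFE and DMSO. By deposited FPKM ATP5G2 led in every library, at 39.4 with SFA, 51.7 with SFE and 53.2 with DMSO. ATP5G3 then stood at 20.9 with SFA, 19.7 with SFE and 19.6 with DMSO. Counts, which are not corrected for length, weight the long ATP5G2 more, and by them it held 55.0% with SFA (interval 53.8 to 56.1%), 62.2% with SFE (61.2 to 63.3%) and 62.2% with DMSO (61.3 to 63.1%). By summed level and by counts the SFA library stood apart in the share of ATP5G2, for counts beyond counting error. The count intervals of SFE and DMSO overlapped.

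In sum, the subunits made up 0.879% of counts with SFA (interval 0.874 to 0.884%), 0.893% with SFE (0.888 to 0.898%) and 0.850% with DMSO (0.846 to 0.854%). The summed share was 1.03 times that of DMSO with SFA and 1.05 times with SFE, but after scaling with edgeR's TMM factors 0.991 times with SFA and 0.982 times with SFE, so the direction of this sum depends on the scaling. By complex, the summed counts with SFA were 1.07 times DMSO for complex I, 1.01 for complex II, 1.09 for complex III, 0.981 for complex IV and 1.01 for complex V. With SFE the same ratios to DMSO were 1.03, 1.01, 1.05, 1.05 and 1.08 from complex I to complex V. After TMM scaling the SFA ratios were 1.03, 0.965, 1.04, 0.94 and 0.969, and the SFE ratios 0.961, 0.948, 0.98, 0.979 and 1.01, again from complex I to complex V. For complexes I and III with SFA the ratio stayed above 1 under both scalings, also with each subunit left out in turn. The lowest such ratio under TMM was 1.01 for each. Subunits of 1 library pair are not replicates, so this shows only how far the sum rests on single genes. Sums weight genes with many counts: after TMM scaling the median log2(FPKM + 1) difference of complex III with SFA was -0.024, with 5 of 10 genes higher. For complex I it was 0.019, with 18 of 36 rows higher. The ratio of complex IV with SFA, whose interval of 0.961 to 1.001 includes 1, rested on COX4I1, and without it was 1.04 per library total and 1.0 under TMM. The ratio of complex V with SFE rested on ATP5D, and without it was 1.02 per library total and 0.954 under TMM. Leaving out each subunit was chosen after seeing the data.

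Gene by gene, differences were taken as log2(FPKM + 1) in the treated library minus that with DMSO, a scale that understates the change of low genes. Of 11680 gene names at 1 FPKM or more in any library, 51.4% were higher with SFA than with DMSO. Among the members, 46 of 79 were higher with SFA, with a median difference of 0.03 beside 0.01 over all genes. A step of 25% was used for calls: FPKM + 1 in one library at least 25% above that in the other. By it 8 members were higher with SFA, against a background of 14.8% of all genes, and 3 were lower, against 13.5%. The members' share of higher calls was 10.1% and their share of lower calls 3.8%. No member reached 2-fold higher (background 1.36%) or 2-fold lower (1.34%) on this scale. With TMM scaling 34 of 79 members, or 43.0%, were higher with SFA, beside 44.0% of all genes. The calls at the 25% step were then 4 higher, against 12.4% of all genes, and 4 lower, against 16.4%.

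With SFE, 45 of 79 members were higher than with DMSO, beside 55.2% of all genes, and the median difference was 0.03 in both sets. At the 25% step, 6 members were higher, or 7.59% against a background of 15.0%, and 2 were lower, or 2.53% against 10.1%. One member, ATP5D, was at least 2-fold higher (background 1.37%) and none at least 2-fold lower (1.01%). With TMM scaling 26 of 79 members, or 32.9%, were higher with SFE, beside 42.2% of all genes. The calls at the 25% step were then 2 higher, against 11.3% of all genes, and 3 lower, against 14.6%. Both comparisons share the DMSO library, and the compounds differ in dose, so their values are set side by side without a comparison between them.

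Most members stayed close to DMSO. Within the 25% step lay 68 of 79 members with SFA (86.1%, beside 71.7% of all genes) and 71 of 79 with SFE (89.9%, beside 74.9%). Members are well expressed, with a median mean FPKM of 12.7 beside 3.93 over all genes. The part of that level in the contrast was not tested, since a cut on mean FPKM does not match levels between the sets. Among genes with a mean of at least 5 FPKM, 85.9% of 64 members lay within the step with SFA beside 73.6% of 5017 genes, and 87.5% beside 78.3% with SFE.

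**Figure D3:**
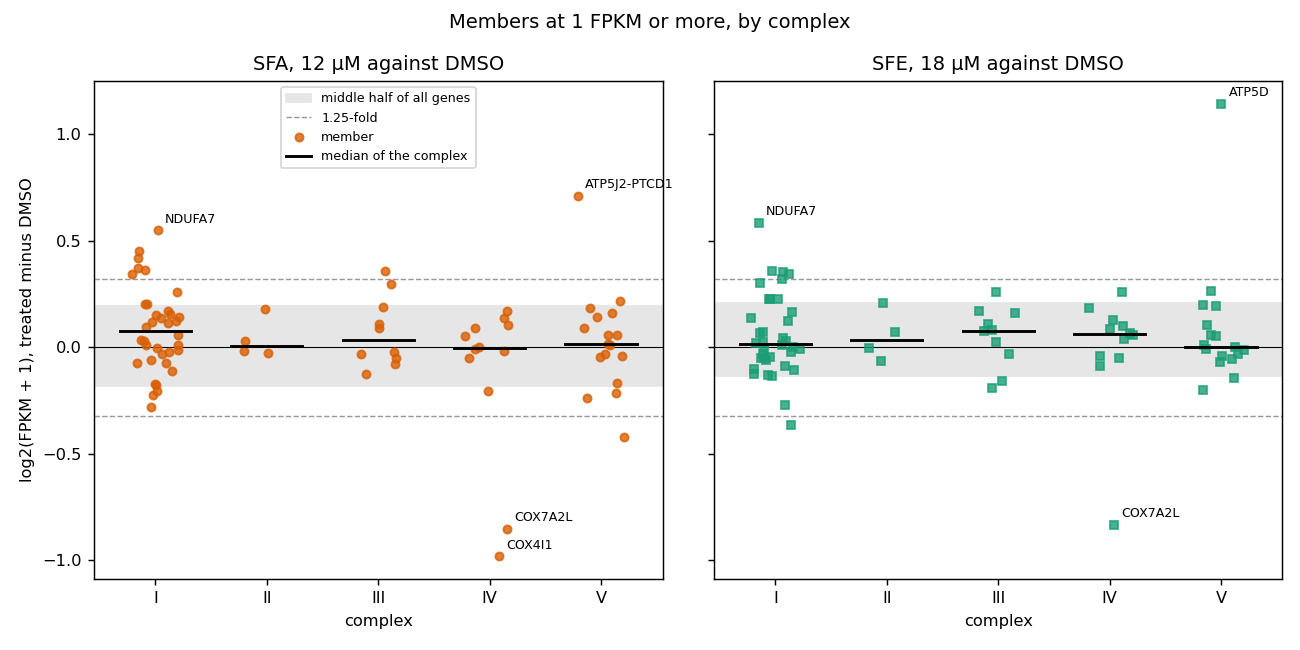
Difference from DMSO on the log2(FPKM + 1) scale (y axis) of the 79 members at 1 FPKM or more, by complex (x axis), with SFA at left and SFE at right; black bars are complex medians, the grey band is the interquartile range of all genes and dashed lines mark the 25% step used for calls. The complex medians lie between -0.004 and 0.078 in both panels, and COX4I1 with SFA, COX7A2L with both compounds and ATP5D with SFE lie far from their complexes.

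In complex I the core and the accessory subunits were described apart. The 7 nuclear core subunits carry the flavin and iron-sulfur centres that lead electrons from NADH to ubiquinone, and the accessory subunits surround them. None of the 7 core genes passed the 25% step in either comparison. Of all genes, 71.7% with SFA and 74.9% with SFE stayed within it. Higher than with DMSO were 2 of 7 with SFA and 3 of 7 with SFE, and 2 of 7 in both after TMM scaling. Over all genes 51.4% were higher with SFA and 55.2% with SFE, or 44.0% and 42.2% after TMM scaling. NDUFV1, which binds the flavin, had 1989 counts with SFA, 2020 with SFE and 2782 with DMSO, for ratios per library total of 0.984 (0.928 to 1.04) with SFA and 0.999 (0.943 to 1.06) with SFE. NDUFS3, a protein of the arm that binds ubiquinone, was the highest of the 7 relative to DMSO, with 2024 counts with SFA, 2061 with SFE and 2400 with DMSO, or 1.16 times DMSO (1.093 to 1.232) with SFA and 1.18 times (1.113 to 1.253) with SFE. It overlaps 4 other listed genes, whose part was not tested.

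Of the 28 accessory complex I genes at 1 FPKM, 21 were higher with SFA (16 after TMM scaling) and 17 with SFE (10 after TMM scaling). Over all genes 51.4% were higher with SFA and 55.2% with SFE, or 44.0% and 42.2% after TMM scaling. At the 25% step 6 accessory genes were higher and none lower with SFA, and 5 were higher and 1 lower with SFE. After TMM scaling these counts were 3 and 1 with SFA, and 1 and 2 with SFE. Of all genes, 14.8% were higher and 13.5% lower by this step with SFA, and 15.0% and 10.1% with SFE. After TMM scaling these shares were 12.4% and 16.4% with SFA, and 11.3% and 14.6% with SFE. NDUFA7 had the largest positive difference of complex I in both comparisons, with 245 counts with SFA, 252 with SFE and 217 with DMSO. Its ratio per library total was 1.55 (1.29 to 1.87) with SFA and 1.6 (1.33 to 1.92) with SFE. The listed span of NDUFA7 (hg38, chr19:8308768-8321396) overlaps that of the ribosomal protein gene RPS28, which had 6404 counts with SFA, 5843 with SFE and 9601 with DMSO, and that of ELAVL1. NDUFB8, a membrane arm subunit that is unstable when complex I is not assembled, stood at 15.3 FPKM with SFA, 15.2 with SFE and 11.7 with DMSO. NDUFB3, another membrane arm subunit, stood at 13.9 FPKM with SFA, 13.7 with SFE and 10.5 with DMSO. Both genes lay above the DMSO value with each compound, at ratios between 1.30 and 1.32. After TMM scaling neither passed the 25% step with either compound. NDUFB8 overlaps HIF1AN and NDUFB3 overlaps FAM126B, whose part was not tested.

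NDUFS4, an accessory subunit mutated in Leigh syndrome, had 146 counts with SFA, 129 with SFE and 136 with DMSO, or 1.48 times DMSO (1.16 to 1.88) with SFA and 1.30 times (1.02 to 1.67) with SFE. NDUFA11, a membrane arm subunit, had 1281 counts with SFA, 991 with SFE and 1292 with DMSO, or 1.36 times (1.26 to 1.47) with SFA and 1.05 times (0.970 to 1.15) with SFE. NDUFA8 had ratios of 1.27 (1.17 to 1.39) with SFA and 1.17 (1.07 to 1.27) with SFE. NDUFA12 and NDUFC2 passed the 25% step with SFE, at ratios of 1.33 (1.13 to 1.57) and 1.28 (1.17 to 1.40), beside SFA ratios of 1.24 and 1.04. After TMM or DESeq2 scaling neither passed it with SFE, and NDUFA8 no longer passed it with SFA.

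NDUFA6, a matrix arm subunit of the LYR protein family, was the lowest of complex I relative to DMSO, with 251 counts with SFA, 234 with SFE and 431 with DMSO. Its ratio by counts was 0.801 (0.683 to 0.938) with SFA and 0.747 (0.634 to 0.878) with SFE, and its antisense RNA NDUFA6-AS1, which overlaps it, had 34 counts with SFA, 28 with SFE and 42 with DMSO. NDUFA5 stayed below 1 FPKM in every library with 161 counts with SFA, 134 with SFE and 205 with DMSO; the length used for its FPKM was 8.08 times that of its principal transcript. The read-through row NDUFC2-KCTD14 had 4 counts with SFE and 0 in the other libraries.

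Complex II, which oxidises succinate and also serves the citrate cycle, had all 4 genes within the 25% step in both comparisons. Within it lay 71.7% of all genes with SFA and 74.9% with SFE. SDHA, the flavoprotein, had 9101 counts with SFA, 9192 with SFE and 12689 with DMSO, for ratios of 0.987 (0.961 to 1.01) with SFA and 0.996 (0.970 to 1.02) with SFE. SDHB, the iron-sulfur subunit, had ratios of 0.979 (0.932 to 1.03) with SFA and 0.956 (0.909 to 1.005) with SFE. SDHC, a membrane anchor, was the furthest from DMSO, at 8.28 FPKM with SFA, 8.45 with SFE and 7.19 with DMSO, or 1.15 times DMSO (1.084 to 1.221) with SFA and 1.17 times (1.108 to 1.246) with SFE. SDHD, the other anchor, had ratios of 1.02 with SFA and 1.06 with SFE, with intervals that include 1.

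In complex III both subunits with redox centres that the nucleus encodes lay above DMSO with both compounds. CYC1, cytochrome c1, stood at 86.0 FPKM with SFA, 80.2 with SFE and 66.8 with DMSO, a ratio of 1.29 (1.23 to 1.34) with SFA and 1.2 (1.15 to 1.254) with SFE. It was the only complex III gene past the 25% step with SFA, and was not past it after TMM scaling. Of all genes, 14.8% were higher by this step with SFA. UQCRFS1, the Rieske iron-sulfur protein, stood at 33.7 FPKM with SFA, 30.7 with SFE and 27.2 with DMSO, a ratio of 1.24 (1.15 to 1.32) with SFA and 1.13 (1.05 to 1.21) with SFE. The core proteins UQCRC1 and UQCRC2 had ratios of 1.06 and 1.08 with SFA, and 1.02 and 1.06 with SFE. CYCS, cytochrome c itself, stood at 9.95 FPKM with SFA, 9.18 with SFE and 10.4 with DMSO, a ratio of 0.961 (0.876 to 1.05) with SFA and 0.887 (0.807 to 0.974) with SFE. UQCRB had 263 counts with SFA, 230 with SFE and 397 with DMSO, a ratio of 0.912 (0.777 to 1.07) with SFA and 0.797 (0.674 to 0.94) with SFE.

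Among the members at 1 FPKM, the one furthest below DMSO belonged to complex IV. COX4I1, the largest nuclear-encoded subunit of complex IV (ENSG00000131143, hg38, chr16:85798633-85807044, plus strand), had 730 counts with SFA, 1586 with SFE and 2256 with DMSO. In CPM this was 53.5 with SFA, 116 with SFE and 120 with DMSO, so SFE and DMSO lay together and SFA lay below both. The ratio per library total was 2.25-fold lower with SFA than with DMSO (2.07 to 2.44), and 0.967 times DMSO (0.906 to 1.03) with SFE. On the log2(FPKM + 1) scale the SFA difference was -0.98, just short of 2-fold, and it passed 2-fold with a pseudocount of 0.1 FPKM (-1.15), after TMM or DESeq2 scaling and per kilobase of the principal transcript (-1.16).

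The listed span of COX4I1 begins within that of EMC8, a subunit of an endoplasmic reticulum membrane complex, which ends at position 85799608. The start used for the promoter window of COX4I1 lies beyond this position. EMC8 had 949 counts with SFA, 786 with SFE and 1063 with DMSO, a ratio of 1.23 (1.12 to 1.34) with SFA and 1.02 (0.926 to 1.12) with SFE, and the part of the overlap in the COX4I1 value was not tested. The other 10 complex IV subunits at 1 FPKM lay closer to DMSO, with SFA ratios between 0.861 for COX7C and 1.13 for COX7A2. With SFE the same 10 lay between 0.94 for COX5A and 1.21 for COX7A2.

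COX7A2L, the supercomplex factor (ENSG00000115944, hg38, chr2:42333546-42425088, minus strand), overlaps no other listed gene and was lower in both treated libraries. It had 802 counts with SFA, 814 with SFE and 2113 with DMSO, or 58.8 CPM with SFA, 59.7 with SFE and 113 with DMSO. This was 1.91-fold lower with SFA (1.76 to 2.08) and 1.89-fold lower with SFE (1.74 to 2.05). The neighbouring gene EML4, a microtubule-binding protein, had 1142 counts with SFA, 1286 with SFE and 2360 with DMSO, 1.5-fold lower with SFA and 1.33-fold lower with SFE. COX7A2, the paralogous subunit, lay above DMSO instead, at 25.4 FPKM with SFA, 27.1 with SFE and 22.5 with DMSO.

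In complex V the genes of the F1 head were mostly close to DMSO, with 1 exception. ATP5A1, the alpha subunit, had ratios of 1.01 (0.977 to 1.04) with SFA and 0.95 (0.919 to 0.982) with SFE, and ATP5B, the beta subunit, 1.12 (1.09 to 1.15) with SFA and 1.07 (1.05 to 1.10) with SFE. ATP5C1, the gamma subunit of the rotor, had 1.04 (0.979 to 1.10) with SFA and 1.15 (1.09 to 1.22) with SFE. ATP5E, the epsilon subunit, was 1.22-fold lower with SFA (1.08 to 1.38) and had a ratio of 0.999 (0.891 to 1.12) with SFE.

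ATP5D, the delta subunit of the central stalk (now ATP5F1D; ENSG00000099624, hg38, chr19:1241746-1244826, plus strand), had 2121 counts with SFA, 4210 with SFE and 2559 with DMSO. In CPM this was 156 with SFA, 309 with SFE and 136 with DMSO, so the SFE library stood apart from the other two. The ratio to DMSO was 2.26 (2.15 to 2.38) with SFE and 1.14 (1.08 to 1.21) with SFA. ATP5D overlaps no other listed gene. Its neighbour MIDN had 2827 counts with SFA, 2887 with SFE and 3413 with DMSO, a ratio of 1.14 with SFA and 1.16 with SFE, and its neighbour CBARP, which regulates calcium channels, had 151 counts with SFA, 137 with SFE and 120 with DMSO, a ratio of 1.73 (1.35 to 2.22) with SFA and 1.57 (1.22 to 2.02) with SFE.

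**Figure D4:**
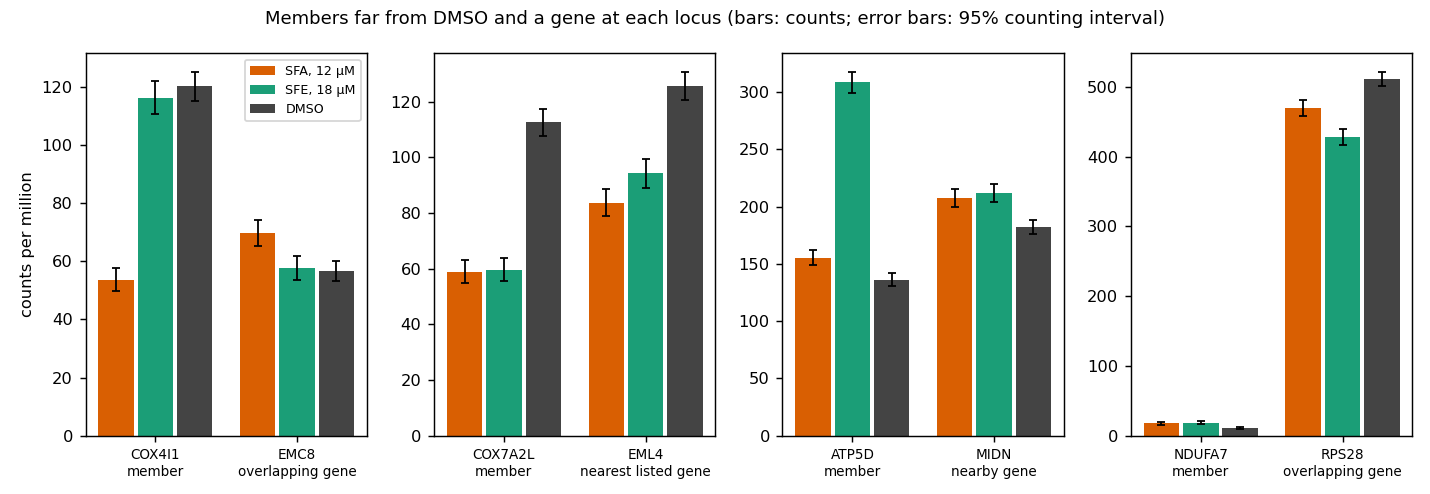
CPM (y axis from 0, a scale of its own in each panel) of COX4I1, COX7A2L, ATP5D and NDUFA7, each beside a gene that overlaps it or lies near it, with SFA, SFE and DMSO; bars are 1 library each and error bars are exact 95% Poisson intervals of the counts. COX4I1 is low with SFA alone (53.5 CPM, against 120 with DMSO), COX7A2L is low with both compounds (58.8 and 59.7, against 113) and ATP5D is high with SFE alone (309, against 136).

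Of the 10 Fo and stalk genes, 5 were higher with SFA and 4 with SFE, beside 3 and 2 after TMM scaling. The shares over all genes were 51.4% and 55.2%, or 44.0% and 42.2% after TMM scaling. By the 25% step 13.5% of all genes were lower with SFA. ATP5G2 alone passed the 25% step, with 3881 counts with SFA, 5097 with SFE and 7211 with DMSO, 1.35-fold lower with SFA (1.30 to 1.40) and at a ratio of 0.972 (0.938 to 1.01) with SFE. The other c subunit genes had SFA ratios of 0.852 (0.781 to 0.929) for ATP5G1 and 1.07 (1.01 to 1.13) for ATP5G3. The row ATP5J2-PTCD1, a read-through of ATP5J2 into PTCD1, had 289 counts with SFA, 133 with SFE and 219 with DMSO, a ratio of 1.82 (1.52 to 2.17) with SFA and 0.835 (0.668 to 1.04) with SFE. ATP5J2 itself had ratios of 0.977 with SFA and 0.976 with SFE, and PTCD1 of 0.937 with SFA and 1.28 with SFE. These rows share exons, so how their reads were divided is uncertain.

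One row below the level threshold is named after its values were seen. ATP5S, a coupling-factor-like protein that is no subunit of the enzyme, had 45 counts with SFA, 62 with SFE and 236 with DMSO. This was 3.81-fold lower with SFA (2.76 to 5.37) and 2.77-fold lower with SFE (2.08 to 3.72), at 0.200 FPKM with SFA, 0.275 with SFE and 0.762 with DMSO. It overlaps CDKL1, whose part was not tested.

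The differences were also set beside the promoter letters. The 26 known subunits at 1 FPKM with the NRF1 core or the ETS letters had a median difference of 0.005 with SFA and 0.025 with SFE. The 35 with neither had medians of 0.102 with SFA and 0.043 with SFE. Over the genes at 1 FPKM with a window, the medians with either of these 2 words were 0.02 with SFA and 0.035 with SFE. With neither they were -0.003 with SFA and 0.022 with SFE.

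The 13 subunits encoded by the mitochondrial genome took 1.35% of counts with SFA, 0.743% with SFE and 1.21% with DMSO, but the rows cannot be read as levels of these genes. MT-CO1 had 97155 counts with SFA, is listed at 0 with SFE and had 134786 with DMSO. Also listed at 0 with SFE are MT-CO2, MT-ND5 and MT-ATP8. MT-ND4 had 201 counts with SFA, 22427 with SFE and 143 with DMSO, and MT-CO3 had at most 98 counts in any library. Rows without such jumps were MT-ND1, MT-ND2, MT-ND6, MT-CYB and MT-ATP6, with ratios between 1.14 and 1.41 with SFA and between 1.15 and 1.38 with SFE. MT-ND3 had 900 counts with SFA, 1457 with SFE and 1021 with DMSO, and MT-ND4L had 115 with SFA, 26 with SFE and 96 with DMSO.

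Genes that assemble the complexes, and other mitochondrial lists, were described in the same way and with no test. Their counts stand beside 51.4% of all genes higher with SFA and 55.2% with SFE, or 44.0% and 42.2% after TMM scaling. Past the 25% step lay 14.8% of all genes upward and 13.5% downward with SFA, and 15.0% upward and 10.1% downward with SFE. Of 10 complex I assembly genes at 1 FPKM, 8 were higher with SFA and 7 with SFE (7 and 4 after TMM scaling), with 2 of them past the 25% step upward with SFA, 1 with SFE and none downward. NDUFAF1 stood at 7.21 FPKM with SFA, 7.06 with SFE and 5.28 with DMSO. NDUFAF4 stood at 6.86 FPKM with SFA, 5.74 with SFE and 4.68 with DMSO. ACAD9, of the same list, went the other way, at ratios of 0.874 (0.811 to 0.942) with SFA and 0.872 (0.8085 to 0.9395) with SFE. ACAD9 overlaps other listed genes, whose part was not tested. Of 22 assembly genes of complexes II to V, 15 were higher with SFA and 14 with SFE (13 and 12 after TMM scaling), and 5 with SFA and 4 with SFE passed the 25% step upward and 2 in each downward. SCO2, which delivers copper to complex IV, had 299 counts with SFA, 287 with SFE and 60 with DMSO, a ratio of 6.86 (5.18 to 9.21) with SFA and 6.58 (4.97 to 8.84) with SFE. It overlaps 2 other listed genes, whose part was not tested. SDHAF1, an assembly factor of complex II that overlaps none, stood at 15.0 FPKM with SFA, 13.1 with SFE and 9.35 with DMSO, or 1.61 times DMSO (1.32 to 1.96) with SFA and 1.4 times (1.14 to 1.71) with SFE. BCS1L, which inserts the Rieske protein UQCRFS1 into complex III, stood at 9.56 FPKM with SFA, 8.29 with SFE and 6.23 with DMSO. COX14 stood at 33.6 FPKM with SFA, 33.1 with SFE and 25.5 with DMSO. UQCC1, another complex III assembly factor, was 1.83-fold lower with SFA (1.63 to 2.06) and 1.74-fold lower with SFE (1.55 to 1.95); it was picked out after its values were seen.

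Of 15 regulators of mitochondrial biogenesis, 6 were higher with SFA (40.0%, beside 51.4% of all genes) and 4 with SFE (26.7%, beside 55.2%), with median differences of -0.06 with SFA and -0.16 with SFE. These counts were also 6 and 4 after TMM scaling, beside 44.0% of all genes with SFA and 42.2% with SFE, so the SFA share lay near that of all genes. NRF1 itself stood at 3.69 FPKM with SFA, 3.12 with SFE and 3.86 with DMSO, and GABPA, the DNA-binding subunit of GABP, at 1.74 FPKM with SFA, 1.61 with SFE and 2.01 with DMSO. TFAM, which packages and transcribes mitochondrial DNA, had 607 counts with SFA, 429 with SFE and 882 with DMSO, a ratio of 0.947 (0.853 to 1.05) with SFA and 0.669 (0.595 to 0.752) with SFE. LRPPRC, which stabilises mitochondrial mRNA, was 1.33-fold lower with SFA (1.27 to 1.39) and 1.18-fold lower with SFE (1.13 to 1.24). C10orf2, the mitochondrial helicase Twinkle, lay above DMSO at 25.3 FPKM with SFA, 26.3 with SFE and 17.2 with DMSO. POLRMT also lay above it, at ratios of 1.15 (1.103 to 1.199) with SFA and 1.10 (1.058 to 1.151) with SFE. TFB2M lay below it, at ratios of 0.867 (0.758 to 0.990) with SFA and 0.748 (0.650 to 0.859) with SFE. PPARGC1A, the coactivator PGC-1alpha, stayed below 1 FPKM, with 82 counts with SFA, 33 with SFE and 174 with DMSO.

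In the citrate cycle 7 of 13 genes were higher in each comparison, and 5 in each after TMM scaling. CS, citrate synthase, had 4282 counts with SFA, 7113 with SFE and 4287 with DMSO, a ratio of 1.37 (1.32 to 1.43) with SFA and 2.28 (2.20 to 2.37) with SFE, and it overlaps 2 other listed genes, whose part was not tested. DLST, of the 2-oxoglutarate dehydrogenase complex, had ratios of 1.10 (1.009 to 1.204) with SFA and 1.54 (1.42 to 1.66) with SFE. OGDH had ratios of 0.836 (0.807 to 0.865) with SFA and 0.902 (0.873 to 0.933) with SFE. SUCLG2, a succinyl-CoA ligase subunit, was 1.34-fold lower with SFA (1.16 to 1.56) and 1.56-fold lower with SFE (1.33 to 1.83).

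Among 18 other carriers and ATP-handling genes, 11 were higher with SFA and 10 with SFE, or 10 and 8 after TMM scaling. CHCHD4, the import receptor for small cysteine-rich proteins of the intermembrane space, overlaps no listed gene and had 755 counts with SFA, 766 with SFE and 542 with DMSO, a ratio of 1.92 (1.71 to 2.14) with SFA and 1.94 (1.74 to 2.17) with SFE. SLC25A5, an ATP and ADP exchanger, stood at 252 FPKM with SFA, 237 with SFE and 318 with DMSO, 1.26-fold lower with SFA and 1.34-fold lower with SFE. HIGD1A, a hypoxia-induced complex IV partner, was 1.37-fold lower with SFA (1.27 to 1.49) and 1.21-fold lower with SFE (1.12 to 1.31). NDUFAB1, the acyl carrier protein that is also a complex I subunit but is not reached by the name patterns, had ratios of 1.30 with SFA and 1.05 with SFE. ETFB had ratios of 1.26 with SFA and 1.26 with SFE, and overlaps other listed genes, whose part was not tested.

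**Figure D5:**
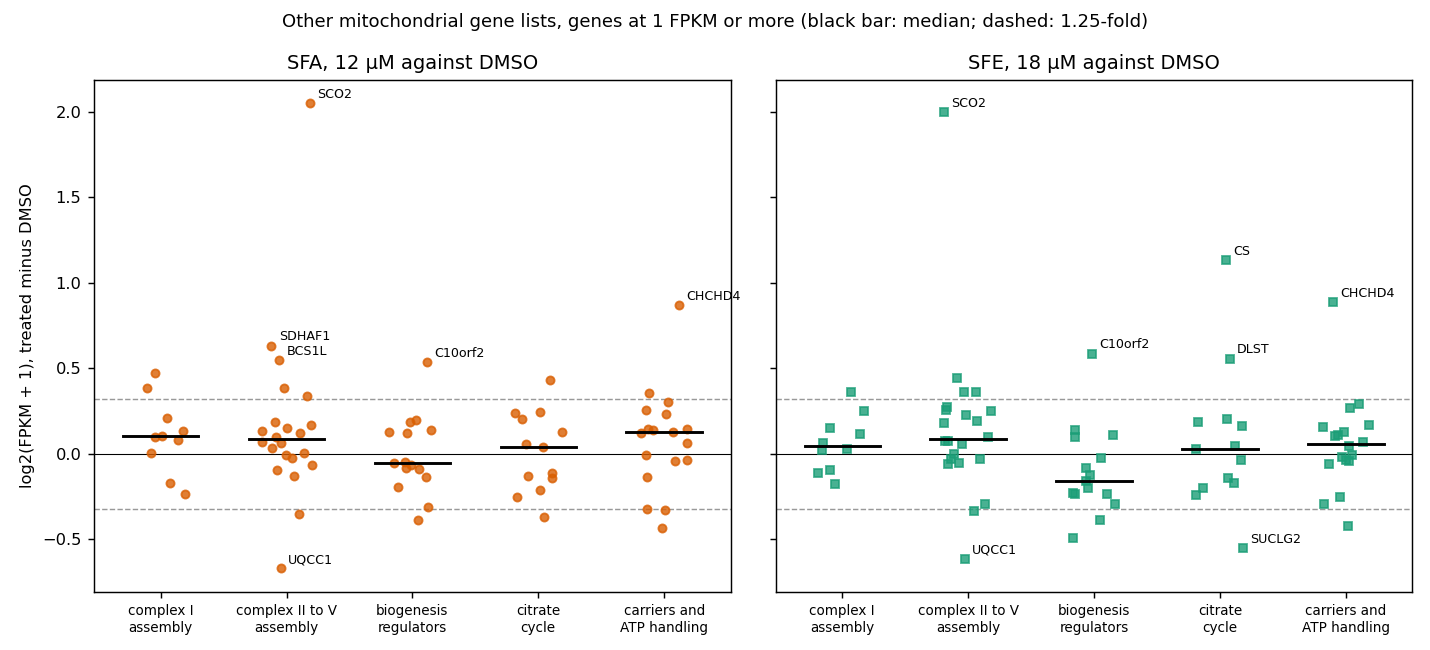
Difference from DMSO on the log2(FPKM + 1) scale (y axis) of genes at 1 FPKM or more in 5 other mitochondrial lists (x axis), with SFA at left and SFE at right; points are genes, black bars list medians and dashed lines the 25% step. SCO2 lies at 2.05 with SFA and 2.0 with SFE, CS at 1.13 with SFE, and the median of the biogenesis regulators at -0.06 with SFA and -0.16 with SFE.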

How the data were processed

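RNA was measured in 3 libraries of AGS cells, 1 each with SFA, SFE and DMSO. The submitters' processing notes name StringTie 1.2.3, HISAT2 2.0.4 and the genome build hg38. Which tool made the counts, with which strand setting and annotation, is not given in the sources used here, so reads of overlapping genes cannot be told apart. The authors deposited whole-number counts and FPKM for 50868 genes. In the deposited table FPKM follows from the counts, a single length of each gene and the summed counts of the library, without a composition factor.

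Gene names shared by several identifiers kept the identifier with the highest mean FPKM, and the comparisons used the 11680 names that reached 1 FPKM in any library. Among these, 66.1% overlap another listed gene, as do 58.2% of the 79 members. Not every overlap is named in the text, for example those of NDUFA11, NDUFC2, ATP5E, ATP5G2 and LRPPRC. Single-gene ratios are counts per library total with exact conditional 95% (Clopper-Pearson) intervals. They were run on simulated counts drawn with counting error only, as the intervals assume. That run therefore says nothing of variation between libraries. A count of 0 allows up to 3 counts, 0.220 CPM with SFA and SFE and 0.160 CPM with DMSO. Lengths came from GENCODE 29, which held all 94 members. The principal transcript was picked by APPRIS rank, then coding status, then transcript support, then the shortest length. TMM factors (edgeR 4.0.16) and size factors (DESeq2 1.42.0) served only as other scalings, in R 4.3.3. Python 3.11.15, pandas 2.3.3, SciPy 1.17.1 and matplotlib 3.10.9 were used elsewhere.

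The members, the 14 pathway lists and the 6 marker lists were chosen with earlier results of these data known. Genes were named by a rule: members past 2-fold, the extremes and the highest and lowest levels of each complex, isoform groups, core and catalytic subunits, read-through rows with the genes they span, and the 3 largest differences at 5 FPKM in each other list. Not every member that the rule picked is given with its values. Members past the 25% step, the lowest complex III gene, neighbouring and overlapping genes, the other regulators and the uneven mitochondrial rows were named after their values were seen. The values of 1 core subunit are not reported here, though it is included in the counts and sums.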

Additional observations from a re-analysis of the deposited data

How the results depend on the processing

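Recomputed under 9 other settings, all 155 recomputed differences of members past the 25% step kept their sign. Of these, 150 moved by no more than the distance from the middle to an end of their counting interval, on the log2 scale. The exceptions were ATP5D with SFE (1.05 and 1.07 under TMM and DESeq2 scaling), ATP5G2 with SFA (-0.48 under TMM) and COX4I1 with SFA (-1.15 with a pseudocount of 0.1 FPKM and -1.16 per kilobase of the principal transcript, an alternative chosen after seeing the data). Only the changes of pseudocount, of scaling (TMM and DESeq2) and of length (principal transcript) could move a single member's difference. The remaining settings change which genes enter, or sum identifiers that no member name shares, so a member's own difference could not move there. The member median ran from -0.02 to 0.06 with SFA and from -0.06 to 0.04 with SFE.

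Under TMM, the member median was -0.019 with SFA and -0.057 with SFE, and that of complex I -0.070 with SFE, of complex II -0.054 with SFA and of complex V -0.085 with SFE; members higher by the 25% step numbered 4 with SFA and 2 with SFE. Under DESeq2 scaling, with SFE, the member median was -0.043, that of complex I -0.053 and of complex V -0.069, and 2 members were higher by that step. COX4I1 passed 2-fold lower with SFA, making 1 such member, under both scalings, with a pseudocount of 0.1 FPKM and per kilobase of the principal transcript. Without genes that overlap another, complex V kept 3 genes, with medians of 0.162 with SFA and 0.199 with SFE, and members past the step numbered 3 higher and 1 lower with SFA and 2 higher and 1 lower with SFE, from fewer genes. Known subunits alone left 1 member lower by the step with SFE, and the principal transcript gave 4, with NDUFB1 and ATP5S added; ATP5S entered because it reached the threshold on that scale.

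No paired analysis was possible because each group is 1 library. With 1 library a group, replicate variation is unknown, and the intervals cover counting error only.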

Other observations

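The 119 numbered pseudogenes that share these gene names, and that the name rule leaves out, drew few reads. They summed to 105 counts with SFA, 94 with SFE and 119 with DMSO, or 0.0863% of the counts of members and pseudogenes together with SFA, 0.076% with SFE and 0.0729% with DMSO. Of these, the 3 UQCRFS1 pseudogenes held 63 counts with SFA, 35 with SFE and 46 with DMSO. The 15 COX6C pseudogenes together had at most 8 counts in any library, beside 443 counts with SFA, 475 with SFE and 635 with DMSO at the gene itself. The 2 pseudogenes of COX4I1 had 0 counts with SFA, 0 with SFE and 1 with DMSO, beside 730 counts with SFA, 1586 with SFE and 2256 with DMSO at the gene.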
